A study of Rattus norvegicus with 17 samples.

Results

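The 3 genes of the regulator of calcineurin family, Rcan1, Rcan2 and Rcan3, were followed across all 6 groups of a study on rat primary cortical cultures. They were chosen by name, with earlier results of these data known, and all 3 were found among the 11247 gene labels of the deposited table. The cultures, labelled as glutamatergic neurons and astrocytes from cerebral cortex, were infected with an empty vector or with α-synuclein A53T, a variant of the presynaptic protein that causes a familial form of Parkinson's disease. Each culture type received the solvent DMSO, 0.2 µM FK506 (called sub-saturating by the submitters) or 2.0 µM FK506 (called saturating). There were 17 libraries, 3 in each group except A53T in DMSO with 2. The series title names octopamine, which no sample label mentions, and the groups used here follow the labels. The sources used here do not give the virus, the promoter that drives A53T, the length of treatment or the number of animals behind a library.

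Calcineurin is a phosphatase that calcium and calmodulin switch on, and FK506 blocks it once bound to the immunophilin FKBP12. RCAN proteins bind calcineurin directly and, when abundant, inhibit it. The short form of Rcan1 is transcribed from a promoter inside the gene on which the calcineurin-dependent NFAT factors act, so it is a classic readout of the pathway. Rcan2 is the family member best known from brain and was first found as a gene that responds to thyroid hormone, and Rcan3 is the third, less studied member.

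The promoter stretches are shown because FK506 acts upstream of NFAT, whose core binding letters can be looked for there. Each run gives the 250 bases before the gene's start in the RefSeq table of build GRCr8, 5′ to 3′ along the gene, and all 3 genes matched by symbol. The Rcan1 window is chr11:45118237-45118486, the Rcan2 window chr9:24672190-24672439 and the Rcan3 window chr5:152947005-152947254, all on the minus strand. Capitals mark letters that match, on either strand, the NFAT core GGAAA, the AP-1 site TGANTCA, the cAMP response element TGACGTCA or the TATA box core TATAAA.
Rcan1: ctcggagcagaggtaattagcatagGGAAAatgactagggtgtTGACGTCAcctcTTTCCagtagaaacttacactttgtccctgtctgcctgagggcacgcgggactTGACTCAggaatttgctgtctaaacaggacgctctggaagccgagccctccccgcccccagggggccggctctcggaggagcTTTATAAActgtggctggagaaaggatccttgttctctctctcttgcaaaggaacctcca
Rcan2: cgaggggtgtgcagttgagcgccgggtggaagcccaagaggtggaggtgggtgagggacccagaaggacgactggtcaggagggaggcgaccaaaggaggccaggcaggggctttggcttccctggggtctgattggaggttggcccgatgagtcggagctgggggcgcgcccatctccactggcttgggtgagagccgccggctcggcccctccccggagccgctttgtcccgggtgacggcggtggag
Rcan3: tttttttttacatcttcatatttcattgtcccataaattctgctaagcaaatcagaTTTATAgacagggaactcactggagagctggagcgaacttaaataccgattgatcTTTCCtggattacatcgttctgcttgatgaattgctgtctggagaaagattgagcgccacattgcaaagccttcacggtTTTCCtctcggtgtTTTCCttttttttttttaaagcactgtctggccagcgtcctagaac

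The start used for Rcan1 lies 69.8 kb inside the annotated gene, whereas those of Rcan2 and Rcan3 lie 2.0 kb and 8.5 kb inside. The Rcan1 window held 2 matches to the NFAT core, 1 to the AP-1 site and 1 to the cAMP response element, and it held 2 overlapping matches to the TATA core, on opposite strands. The Rcan2 window held 0 matches to each of the 4 motifs and had 69.2% G and C, against a median of 51.2% over 33469 windows of the same length. The Rcan3 window held 3 NFAT cores and 1 TATA core in 40.0% G and C. An NFAT core was present in 56.9% of all these windows, an AP-1 site in 6.34%, a cAMP response element in 1.59% and a TATA core in 12.9%. A match describes letters only. The gene values sum all transcripts, so the forms of Rcan1 were not separated.

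Values are the authors' normalized counts, with totals of 15091428 to 18335540 per library. The 3 libraries of A53T at 0.2 µM lay outside all others on the leading axis of variation within groups, with scores of 6.75 to 6.82 against -3.28 to 2.07 for the other 14. Relative to Poisson noise, they differed from each other by a factor of 0.995 to 1.05, whereas pairs in other groups differed by 1.48 to 14.4. They were therefore counted as 1 sample, so every result of that group rests on 1 sample, and its values have no error of their own. The labels do not say whether replicate libraries are separate cultures, so the p-values cover the observed spread between libraries, and that may be technical. Fold changes are log2 values of (normalized count + 1) from limma, given ± standard error, and "rose" and "fell" mean an adjusted p under 0.05 over all 11247 genes.

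**Figure D1:**
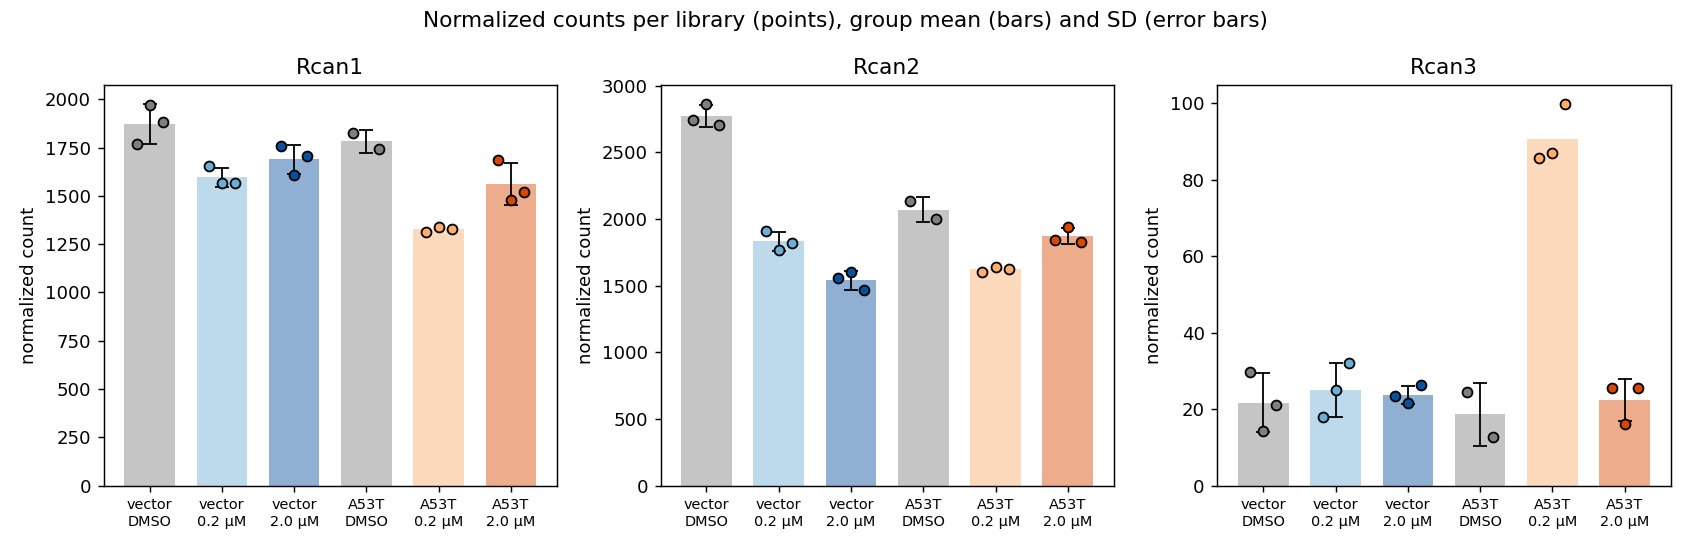
Normalized count (vertical axis, from 0) of Rcan1, Rcan2 and Rcan3 in the 6 groups. Points are libraries, bars are group means, and error bars are SDs, left out for A53T at 0.2 µM, which was counted as 1 sample. Rcan2 is highest in vector with DMSO, and Rcan3 stands out in A53T at 0.2 µM.

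Rcan2 was the member that changed most in vector cultures, where FK506 lowered it at both doses. Its normalized counts in vector with DMSO were 2739.9, 2862 and 2709. At 0.2 µM they were 1913, 1771 and 1817. At 2.0 µM they were 1559, 1602 and 1464. The 3 groups did not overlap, and the means were 66.2% and 55.7% of the DMSO mean at the lower and the higher dose. How many of all genes show no overlap was not counted, here or in later comparisons. Rcan2 fell by 0.60 ± 0.05 at 0.2 µM (adjusted p = 6.0e-05) and fell by 0.85 ± 0.05 at 2.0 µM (adjusted p = 1.8e-07). The higher dose minus the lower one was -0.25 ± 0.05 (adjusted p = 0.0039).

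These falls stood within broad change. Of all genes, 10.6% fell at 0.2 µM and 23.8% at 2.0 µM, and 15.7% were lower at the higher than at the lower dose. Rcan2 lay toward the edge of the distribution, with 3.74% of genes more negative at 0.2 µM and 6.36% at 2.0 µM. These 3 falls of Rcan2 passed under all 28 alternatives, with adjusted p of at most 0.0252.

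A53T cultures started from a lower level of Rcan2. In DMSO their 2 libraries had 2136 and 2004, both below every vector library in DMSO. The mean was 74.7% of the vector mean, and the difference of -0.42 ± 0.06 passed (adjusted p = 8.5e-04), where 8.19% of genes were lower. It passed under all 28 alternatives, at adjusted p of up to 0.0482.

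At 2.0 µM the relation between the 2 culture types was the other way round. Rcan2 had 1842, 1941 and 1829 in A53T at 2.0 µM, all above the highest vector value at that dose. A53T exceeded vector there by 0.28 ± 0.05 (adjusted p = 0.0042, with 9.88% of genes higher), although a fit of only these 2 groups gave adjusted p = 0.055. Of the 921 genes that were lower in A53T with DMSO, 79 were higher in A53T at 2.0 µM, which is 8.58% of that list and 7.11% of the 1111 genes higher at 2.0 µM.

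The response of Rcan2 to 2.0 µM FK506 differed between vector and A53T. In A53T the change from DMSO was -0.15 ± 0.06 and did not pass (adjusted p = 0.075, 95% interval -0.28 to -0.01). The groups still did not overlap, since the lowest A53T library in DMSO had 2004 and the highest at 2.0 µM had 1941. The interaction, which is the change in A53T minus that in vector, was 0.70 ± 0.08 (adjusted p = 3.3e-04, 95% interval 0.52 to 0.88). Of all genes 8.14% had a positive interaction that passed, and 5.21% had a larger one than Rcan2. The interaction passed under all 28 alternatives, with adjusted p of at most 0.0141, while the change within A53T passed after quantile normalization (-0.20, adjusted p = 0.0151).

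At 0.2 µM in A53T, Rcan2 had 1606, 1638 and 1627. Against A53T with DMSO it fell by 0.35 ± 0.08 (adjusted p = 0.0024) in a contrast where 34.2% of genes fell. The level at 2.0 µM was above that at 0.2 µM by 0.20 ± 0.08 (adjusted p = 0.0277, with 38.7% of genes higher), but not without replicate 2 of A53T at 2.0 µM (adjusted p = 0.0636). The difference from vector at 0.2 µM was -0.17 ± 0.08 (adjusted p = 0.0592) and the interaction at that dose 0.25 ± 0.10 (adjusted p = 0.055). With all 17 libraries as separate samples these gave adjusted p of 0.0042 and 0.0097. Leaving out replicate 2 of vector at 0.2 µM gave 0.0479 for that difference. The interaction gave 0.0429 without replicate 1 of vector at 0.2 µM, 0.0471 without replicate 1 of A53T at 2.0 µM and 0.0493 without replicate 1 of A53T at 0.2 µM.

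Ordered by its mean, Rcan2 was highest in vector with DMSO, then A53T with DMSO, A53T at 2.0 µM, vector at 0.2 µM, A53T at 0.2 µM and vector at 2.0 µM. Only A53T at 2.0 µM and vector at 0.2 µM overlapped among neighbours in this order. The gap between A53T at 0.2 µM and vector at 2.0 µM was small, with 1606 as the lowest value of the one and 1602 as the highest of the other.

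Marker sums of several cell types were lower, as Rcan2 was, in vector with FK506. The 6 measured of 7 GABAergic markers summed to 30415 to 34249 normalized counts in vector with DMSO, 17185 to 19457 at 0.2 µM and 11873 to 13845 at 2.0 µM. In A53T they summed to 16026 to 16368 in DMSO, 11206 to 11228 at 0.2 µM and 10467 to 13339 at 2.0 µM. All 6 fell in vector at 2.0 µM, against 23.8% of all genes, and 5 of 6 were lower in A53T than in vector with DMSO, against 8.19%. The sum of the 10 astrocyte markers went from 90256 to 92581 in vector with DMSO to 39518 to 41125 at 2.0 µM, with 8 lower and 2 higher, against 23.8% and 23.4% of all genes. For the 10 general neuron markers the sum went from 64729 to 69499 to 46073 to 49398, with 7 lower and 0 higher, against the same shares. The 7 glutamatergic markers summed to 10757 to 12256 in vector with DMSO and overlapped that at 0.2 µM, with 9286 to 12770. At that dose 0 were lower and 1 higher, against 10.6% and 7.70% of all genes. At 2.0 µM they summed to 6217 to 7712, with 2 lower and 1 higher. In A53T, where the change of Rcan2 at 2.0 µM was -0.15 and did not pass, marker sums were also lower than in DMSO. Astrocyte markers went from 77263 to 80859 in DMSO to 43083 to 47147 at 2.0 µM, with 5 lower and 2 higher. General neuron markers went from 63034 to 63740 to 50384 to 55008, with 7 lower and 1 higher. Of the 6 GABAergic markers 5 were lower and 0 higher. Glutamatergic markers went from 9892 to 10670 to 3729 to 5699, with 5 of 7 lower and 0 higher. Of all genes, 17.9% were lower and 19.7% higher in that contrast.

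The 6 measured of 8 oligodendrocyte lineage genes summed to 1482 to 1549 in vector and 4101 to 4194 in A53T at 2.0 µM, and to 3287 to 3300.2 and 2836 to 2845 in DMSO. At 2.0 µM 3 of the 6 were higher in A53T and 0 lower (median 0.31), where 9.88% of all genes were higher. In DMSO 1 of 6 was lower and 0 higher (median -0.05), so few members carried the difference in sums. Olig1, a transcription factor of this lineage, was higher in A53T at 2.0 µM by 1.78 ± 0.07 (adjusted p = 2.2e-08) and had -0.28 ± 0.07 in DMSO (adjusted p = 0.0270). No measured marker of these lists was at 0 in every library of a group. Of the other types, 0 of 8 microglia markers and 1 of 5 endothelial markers were in the table, and 5 of 6 fibroblast markers summed to at most 1022. The part of these shifts in the values of Rcan2 was not tested. In bulk RNA, fewer cells of a type and less RNA per cell cannot be told apart.

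**Figure D2:**
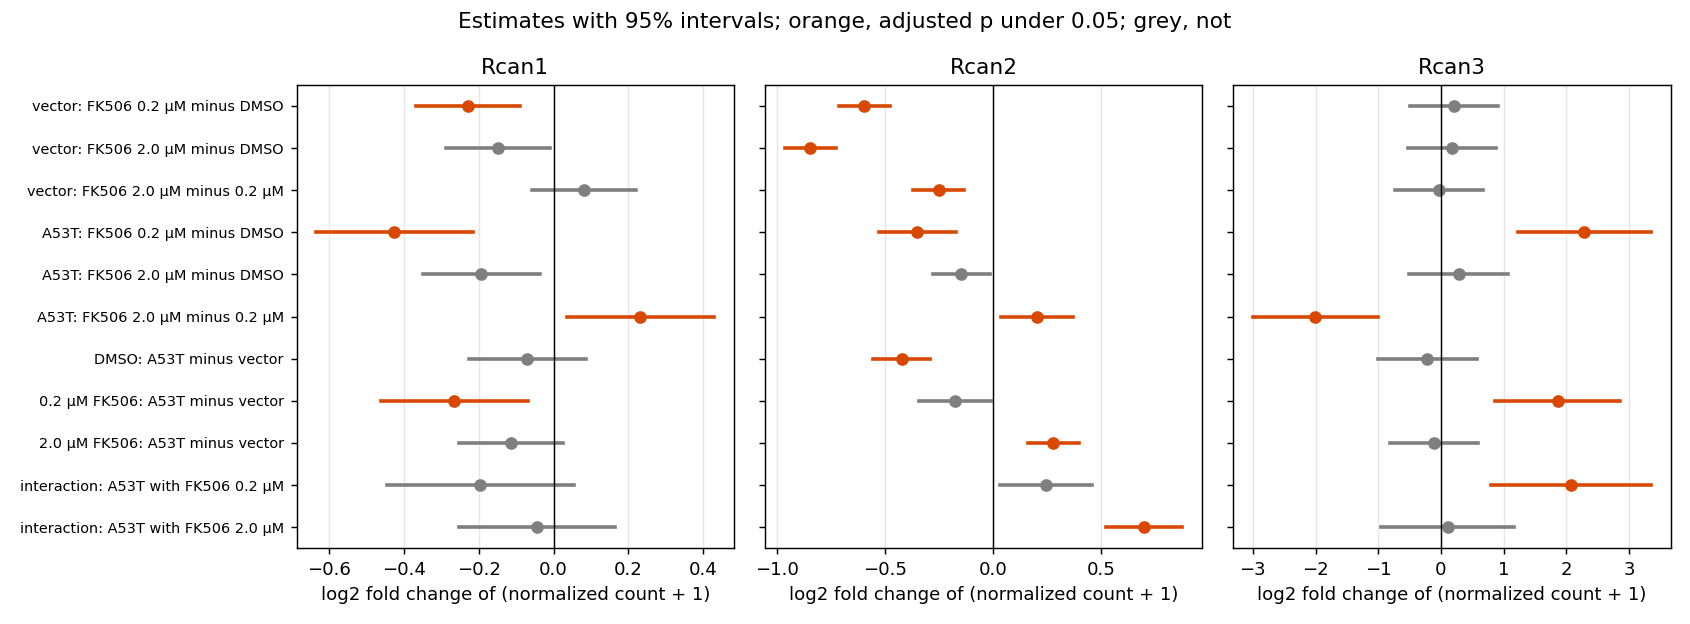
Log2 fold change (horizontal axis) with its 95% interval for each member in the 11 contrasts (rows). Orange estimates have an adjusted p under 0.05 and grey ones do not, and the horizontal scales differ between members. Rcan2 has the interaction of 0.70 at 2.0 µM, and the orange estimates of Rcan3 all involve A53T at 0.2 µM.

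Rcan1 had lower means with FK506 in both culture types, but by less than Rcan2 in vector, and few of the differences were stable. In vector with DMSO it had 1767, 1971 and 1879.9 normalized counts. At 0.2 µM it had 1654, 1566 and 1568, all below the DMSO libraries. At 2.0 µM it had 1755, 1606 and 1706, which lay below the DMSO libraries by a narrow gap. Rcan1 fell by 0.23 ± 0.06 at 0.2 µM (adjusted p = 0.0278), so 2 of the 3 members fell at a dose where 10.6% of genes did. At 2.0 µM the change of -0.15 ± 0.06 did not pass (adjusted p = 0.0752).

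The fall of Rcan1 at 0.2 µM did not hold without replicate 2 of vector with DMSO (-0.19, adjusted p = 0.114), without replicate 3 of that group (adjusted p = 0.0816), or without replicate 2 (adjusted p = 0.0918) or 3 (adjusted p = 0.0980) of vector at 0.2 µM. After quantile normalization it was -0.18 and just missed the threshold (adjusted p = 0.050). The change at 2.0 µM passed without replicate 1 of A53T at 2.0 µM (adjusted p = 0.0394). The doses in vector differed by 0.08 ± 0.06, with a 95% interval of -0.06 to 0.22 (adjusted p = 0.349).

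In A53T with DMSO, Rcan1 had 1825 and 1739.8 normalized counts, which overlapped the vector libraries. The difference from vector was -0.07 ± 0.07 (adjusted p = 0.551, 95% interval -0.23 to 0.09). At 2.0 µM in A53T the values were 1687, 1478 and 1519, below both A53T libraries in DMSO. That change was -0.19 ± 0.07 at an adjusted p of 0.0503, and it passed in 9 of 28 alternatives. Among these were the fits without replicate 1 of A53T at 2.0 µM (-0.25, adjusted p = 0.0163), without replicate 1 of vector at 0.2 µM (adjusted p = 0.0477) and without replicate 2 of vector at 2.0 µM (adjusted p = 0.048).

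Rcan1 was lowest in A53T at 0.2 µM, with 1314, 1338 and 1329. Against A53T with DMSO it fell by 0.43 ± 0.10 (adjusted p = 0.0020, with 34.2% of genes lower) and its difference from vector at 0.2 µM was -0.27 ± 0.09 (adjusted p = 0.0199, with 35.1% of genes lower). The level at 2.0 µM exceeded it by 0.23 ± 0.09 (adjusted p = 0.0325, with 38.7% of genes higher), but not without replicate 1 of A53T at 2.0 µM (0.18, adjusted p = 0.0729). With the axis score as a covariate, which is nearly confounded with this group, the last of these was -0.011 ± 0.15. At 2.0 µM, A53T and vector differed by -0.11 ± 0.06 (adjusted p = 0.214), and the interactions were -0.20 ± 0.12 at 0.2 µM (adjusted p = 0.174) and -0.04 ± 0.10 at 2.0 µM (adjusted p = 0.758). Ordered by mean, the first 5 groups each overlapped the next, and only A53T at 0.2 µM lay apart.

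The balance of Rcan1 and Rcan2 within a library does not depend on how libraries were scaled. The log2 ratio of Rcan1 to Rcan2 was -0.57 ± 0.06 in vector with DMSO, -0.20 ± 0.02 at 0.2 µM and 0.13 ± 0.11 at 2.0 µM (mean ± SD, n = 3 each). It therefore shifted toward Rcan1 by 0.37 and 0.70. In A53T it was -0.21 ± 0.02 in DMSO (n = 2), -0.29 as the mean of the 0.2 µM libraries, and -0.26 ± 0.13 at 2.0 µM (n = 3).

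The ratio in vector did not overlap between any of the doses, whereas in A53T the 2.0 µM libraries, from -0.39 to -0.13, spanned those in DMSO. Exact two-sided permutation tests gave p = 0.1 for each of the 3 comparisons of this ratio with vector in DMSO, the smallest p that 3 against 3 or 2 against 3 samples allow, and 0.225 after adjustment over 9 ratio comparisons. The other 6 comparisons, of Rcan1 or Rcan2 with Rcan3, had p from 0.1 to 0.8. Only differences between groups are read here, since the ratio itself also depends on transcript length.

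Rcan3 was measured at a low level in all groups but A53T at 0.2 µM. In vector it had 29.8, 14.3 and 21.0 normalized counts with DMSO. It had 17.9, 24.9 and 32.1 at 0.2 µM, and 23.4, 21.5 and 26.3 at 2.0 µM. A53T with DMSO had 24.5 and 12.8, and A53T at 2.0 µM had 25.7, 16.0 and 25.5. These 5 groups overlapped one another. From the spacing of the low values, 1 read was worth about 0.875 to 1.28 normalized counts in the libraries of these 5 groups. They thus held roughly 12.1 to 36.6 reads of Rcan3. Low values were not whole multiples of 1 step in every library, so these reads are approximate.

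The FK506 changes of Rcan3 in vector were 0.21 ± 0.32 at 0.2 µM (adjusted p = 0.664) and 0.18 ± 0.32 at 2.0 µM (adjusted p = 0.682). Their 95% intervals ran from -0.49 to 0.92 and from -0.53 to 0.88, so changes within those ranges were not excluded. In A53T at 2.0 µM the change was 0.28 ± 0.36 (adjusted p = 0.544), and A53T differed from vector in DMSO by -0.22 ± 0.36 (adjusted p = 0.729).

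In A53T at 0.2 µM, Rcan3 had 85.5, 86.8 and 99.7 normalized counts, all above the highest value elsewhere, 32.1. It was higher than in A53T with DMSO by 2.29 ± 0.49 (adjusted p = 0.0013), higher than in vector at 0.2 µM by 1.86 ± 0.46 (adjusted p = 0.0033) and higher than in A53T at 2.0 µM, where the contrast was -2.0 ± 0.46 (adjusted p = 0.0015). The interaction at 0.2 µM was 2.07 ± 0.58 (adjusted p = 0.0141), and 1.63 without the unnumbered library of A53T in DMSO (adjusted p = 0.0543). Of all genes, 33.6% rose against A53T with DMSO, 33.8% were higher than in vector, 38.5% were lower at 2.0 than at 0.2 µM in A53T, and 22.1% had a positive interaction. The interaction called 2491 genes higher and 2830 lower, and 2296 higher and 4111 lower after quantile normalization.

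For the libraries of A53T at 0.2 µM, genes of the same low level as Rcan3 are given as a description. Of 1389 other genes with a mean of 10 to 50 in the other 14 libraries, 31.9% were higher and 9.36% lower in A53T at 0.2 µM than in DMSO, and 17.6% had a larger positive change than Rcan3. Of all genes, 33.6% rose and 34.2% fell in that contrast. Selection by low values outside these libraries favours rises in them. The balance of rises and falls in this band and the place of Rcan3 in it are therefore not read as results. The summed glutamatergic markers were also higher there, at 15162 to 15604 against 9892 to 10670 in A53T with DMSO. Of the 7, 4 rose and 1 fell, against 33.6% and 34.2% of all genes. General neuron markers summed to 75554 to 76758 against 63034 to 63740 without moving one way: 3 of 10 rose and 3 fell, near the same shares, with a median of -0.10. Map2 was at 4.41 ± 0.94 (adjusted p = 0.0014) and Tubb3 at -0.75 ± 0.06 (adjusted p = 3.0e-06), both genes of the neuronal cytoskeleton. With the axis score as a covariate the change of Rcan3 from DMSO was 1.77 ± 0.74 and did not pass, against 2.29 ± 0.49 in the main fit. These libraries lie outside all others on that axis, so score and group can hardly be told apart in that fit. The part of these shifts in the value of Rcan3 was not tested further.

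**Figure D3:**
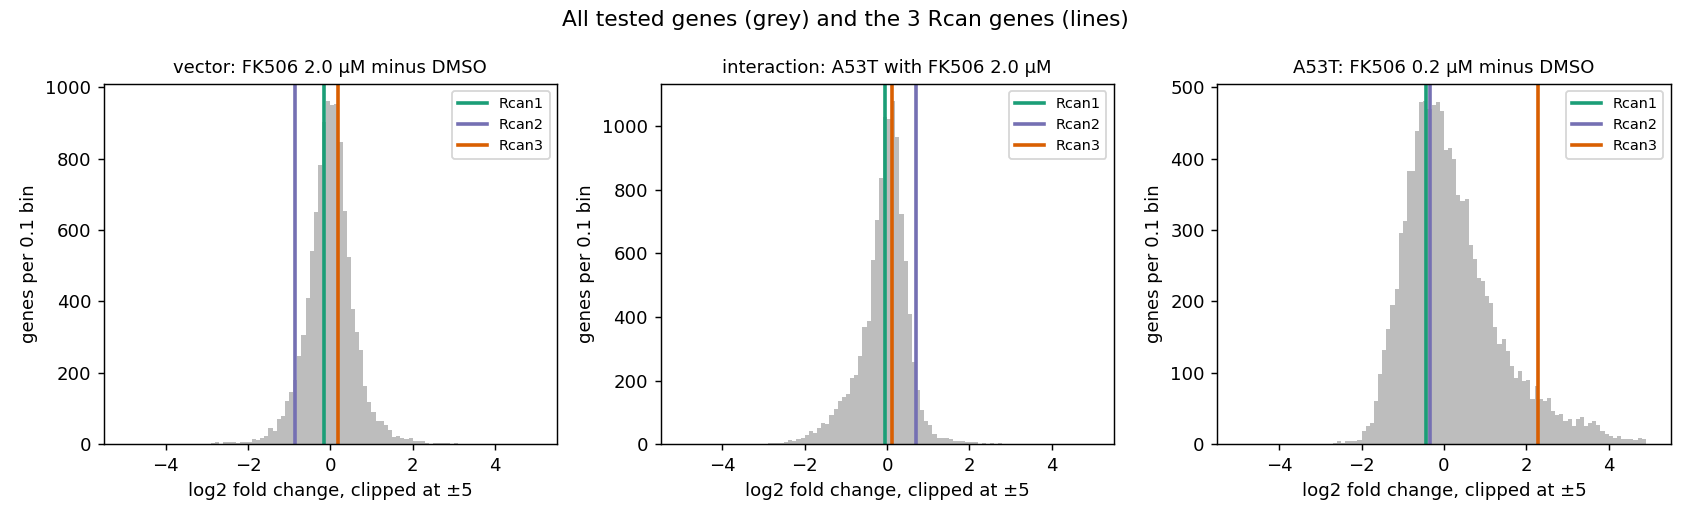
Number of genes (vertical axis) by log2 fold change (horizontal axis, values beyond ±5 put in the outermost bins) for all 11247 genes, with lines for the 3 members. In vector at 2.0 µM Rcan2 lies at -0.85 with 6.36% of genes below it, in the interaction at 2.0 µM at 0.70, and in A53T at 0.2 µM Rcan3 lies at 2.29 in a broad distribution.

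Other genes of the calcineurin pathway moved with Rcan2 in vector at 2.0 µM. Of 10 measured genes for calcineurin subunits, calmodulin and immunophilins, 6 fell and 0 rose, against 23.8% and 23.4% of all genes. Their median was -0.39, against 0.00 over all genes. Calm2, which encodes calmodulin, fell by 0.38 ± 0.06 (adjusted p = 1.9e-04). At 0.2 µM 2 of the 10 fell and 0 rose, against 10.6% and 7.70% of all genes. Cabin1, a protein inhibitor of calcineurin, at 2.0 µM fell by 0.18 ± 0.05 (adjusted p = 0.0135). Chp1, a calcium-binding protein related to calcineurin's regulatory subunit, fell by 0.24 ± 0.07 (adjusted p = 0.0135). All 3 measured inhibitors and anchors fell at 2.0 µM, where 23.8% of all genes did, and 0 of 3 passed at 0.2 µM, where 10.6% fell and 7.70% rose.

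In A53T with DMSO, where Rcan2 was also lower, 3 of the 10 genes were lower than in vector and 0 higher, against 8.19% of all genes lower and 5.85% higher. The difference was -0.56 ± 0.12 for Fkbp1b, an immunophilin close to FKBP12 (adjusted p = 0.0089), and -0.29 ± 0.07 for Ppp3cc, a catalytic calcineurin subunit (adjusted p = 0.0164). In the interaction at 2.0 µM, 3 of the 10 were positive and 0 negative, against 8.14% and 6.45% of all genes, with Ppp3cc at 0.39 ± 0.09 (adjusted p = 0.0167) and the immunophilin Fkbp5 at 0.28 ± 0.08 (adjusted p = 0.0413). In A53T at 2.0 µM against DMSO, 2 rose and 3 fell, where 19.7% of all genes rose and 17.9% fell.

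Of 3 measured NFAT factors, Nfatc3 rose by 0.57 ± 0.11 in vector at 0.2 µM (adjusted p = 0.0042), where 7.70% of all genes rose. At 2.0 µM 1 rose and 1 fell in vector, against 23.4% and 23.8% of all genes, and 1 rose and 1 fell in A53T, against 19.7% and 17.9%. Among 8 measured genes for kinases that phosphorylate RCAN1 and for ubiquitin ligase subunits that mark it for degradation, 3 rose and 1 fell in vector at 2.0 µM, where 23.4% of all genes rose and 23.8% fell. Btrc, such a ligase subunit, rose by 0.54 ± 0.06 (adjusted p = 1.4e-05), and the kinase Gsk3b rose by 0.91 ± 0.15 (adjusted p = 3.4e-04). In A53T at 0.2 µM all 8 passed, 5 higher and 3 lower, where 67.8% of all genes passed. Gsk3b was higher there by 3.29 ± 0.23 (adjusted p = 1.3e-06), and Dyrk1a by 1.49 ± 0.23 (adjusted p = 1.6e-04).

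Genes near the 3 members on their chromosomes are described next. RCAN genes sit in clusters with CLIC and RUNX genes, and of the 6 Clic and Runx genes listed 2 were in the table. In vector 0 of these 2 passed at 0.2 µM, where 7.70% of all genes rose and 10.6% fell. At 2.0 µM 0 of them passed, where 23.4% rose and 23.8% fell. Of the 3 nearest protein-coding genes on each side, 0 of 6 were measured for Rcan1, 4 of 6 for Rcan2 and 2 of 6 for Rcan3. Between the doses in vector, Enpp5 was lower at 2.0 than at 0.2 µM by -0.34 ± 0.12 (adjusted p = 0.0493), 1 of 4 neighbours of Rcan2 against 15.7% of all genes. Against DMSO at 2.0 µM, 0 of the 4 fell and 1 rose, against 23.8% and 23.4% of all genes. The one that rose was Slc25a27, a mitochondrial carrier, by 0.22 ± 0.06 (adjusted p = 0.0122). In A53T with DMSO, where Rcan2 was lower, 2 of the 4 were higher, against 5.85% of all genes, with the sterol hydroxylase Cyp39a1 at 1.09 ± 0.20 (adjusted p = 0.0035). Cyp39a1 also had an interaction at 2.0 µM of -1.37 ± 0.26 (adjusted p = 0.0057, with 6.45% of genes negative), opposite in sign to that of Rcan2. In A53T at 0.2 µM against DMSO, where Rcan2 fell, Enpp4 was at 0.75, Enpp5 at 0.51, Slc25a27 at 0.47 and Cyp39a1 at -0.38. Of the Rcan3 neighbours, Srrm1, a splicing coactivator, rose in A53T at 0.2 µM against DMSO by 0.48 ± 0.08 (adjusted p = 2.0e-04), while Stpg1 had -0.44 ± 0.22 (adjusted p = 0.0889).

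The genes most like each member were ranked by Pearson's r of log2 values over the 15 samples, which share libraries and group differences, so r is a description only. For Rcan2 these were Gna12, a G protein α subunit (r = 0.96), Idh3a, a subunit of the mitochondrial isocitrate dehydrogenase (r = 0.96) and Tmod1, which caps actin filaments (r = 0.95), and 47 genes had r above 0.9. Gna12 went from 2289 ± 57.1 to 1854 ± 25.7 and 1683 ± 51.7 normalized counts with dose in vector (n = 3 each). In A53T it was 1939.8 ± 9.16 in DMSO (n = 2) and 1969 ± 52.3 at 2.0 µM (n = 3). Without the sample of A53T at 0.2 µM, r was 0.96 for Gna12, 0.96 for Idh3a and 0.95 for Tmod1 over 14 samples.

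For Rcan1 the closest genes were Pak1ip1, a ribosome assembly factor (r = 0.93), the α-tubulin Tuba4a (r = 0.91) and Rnf39 (r = 0.91), the 3 genes with r above 0.9. Without the A53T sample at 0.2 µM these were 0.88, 0.86 and 0.88. For Rcan3 they were Vps26a, a subunit of the retromer sorting complex (r = 0.91), Nkap (r = 0.90) and the ubiquitin ligase Rnf144b (r = 0.89). Without that sample these were 0.70, 0.67 and 0.66. Nkap, for example, had 472 in A53T at 0.2 µM and means of 126 to 179 in the other 5 groups.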

How the data were processed

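RNA from rat cortical cultures was sequenced after stranded mRNA library preparation, per the labels' protocols. Per the submitters' processing notes, FastQC, TopHat and HTSeq were used with build rn6, without versions. The authors deposited normalized gene counts, treated here as a signal, since the sources used here do not give the normalization. Low values were whole multiples of 1 step (tolerance 0.1 step, at least 95% of values) in 11 of 17 libraries, so whole reads were not recovered for all and no count test was run. Raw depth is not given, so no counting intervals are printed.

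The table's second column of A53T in DMSO carries the number 3, which no title has. That library entered its group as an unnumbered replicate. Libraries of a group within 1.1 times Poisson noise for values of 10 to 3000 were averaged into 1 sample, which applied to A53T at 0.2 µM. If noise is scaled by each library's step, that group's pairs have ratios of 1.14 to 1.22 and the others 1.49 to 12.4. By that measure the group lies above the limit of 1.1 and would not have been averaged. The fit thus had 15 samples with 9 residual degrees of freedom. That single sample is assumed to vary like the others.

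Values were fitted as log2(value + 1) with limma 3.58.1 (trend) in R 4.3.3, 1 mean per group, 11 contrasts, Benjamini-Hochberg adjustment over 11247 genes and a threshold of 0.05. Adding 1 understates changes of low genes. A minimum mean of 1 removed 0 genes. On simulated data with 200 of 11247 genes changed in vector at 2.0 µM, 44% were recovered at a log2 change of 0.5 and 82.5% at 1. The simulated noise was independent between genes, and in the data far more genes passed there (23.4% higher, 23.8% lower). These rates are therefore not those of the real fit or of a single gene. Ratios within libraries were compared by exact permutation. Symbols, neighbours and promoter sequences come from RefSeq, build GRCr8, in which 10458 of 11247 labels matched a symbol and 11093 a symbol or synonym.

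Members and lists were chosen with earlier results of these data known. Named genes were the 3 members, at most 2 rising and 2 falling genes per pathway list by smallest p, the 3 genes most like each member, and the 3 protein-coding neighbours on each side. Olig1, Map2 and Tubb3 fall outside this rule and were chosen after their values were seen. Other listed genes are given as counts. A gene that this rule names is not reported here. The 28 alternatives changed the pseudocount (0.25 or 4), the filter (none or a mean of 50), the scaling, the samples in the fit, the replicate block, single libraries, 3 libraries that stand apart, or added the axis score. That score is each library's position on the leading axis of deviations from group means, which held 54.2% of that variance.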

Additional observations from a re-analysis of the deposited data

Results flagged for a closer look

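The response of Rcan2 to 2.0 µM FK506 differed between A53T and vector cultures by an interaction of 0.70 on the log2 scale (limma, adjusted p = 3.3e-04). At that dose 3 of 3 A53T libraries lay above 3 of 3 vector libraries, and in DMSO 2 of 2 lay below 3 of 3. The share of all genes that separate in this way was not computed. The response of Rcan3 to 0.2 µM FK506 also differed, by 2.07 (limma, adjusted p = 0.0141), and this value rests on the 3 near-identical libraries of A53T at 0.2 µM, counted as 1 sample.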

How the results depend on the processing

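The falls of Rcan2 in vector at both doses and between them, its lower level in A53T with DMSO and its interaction at 2.0 µM kept their direction and passed under all 28 alternatives. Of these, 17 leave out 1 library each. Where that library lies outside the groups compared, the estimate cannot move and only the shared spread changes. Such settings do not test the direction. Of 1347 alternative values in all, counts and ratios included, 1255 kept their side of the threshold or stayed within 1.5 times, 53 were weaker, 38 stronger and 1 reversed, and the cause of a change was not tested. The count test was not run, and Rcan3 has no value with a minimum mean of 50, which removes it.

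With the axis score as a covariate, Rcan1 for 2.0 against 0.2 µM in A53T reversed to -0.011. Rcan1 then lost its calls in A53T at 0.2 µM against DMSO (-0.25) and against vector (-0.10), and passed at 2.0 µM in vector (-0.15), in A53T (-0.26) and between them (-0.16). Rcan2 lost its calls in A53T at 0.2 µM (-0.23) and between the A53T doses (0.035), and passed at 2.0 µM in A53T (-0.19) and in the 0.2 µM interaction (0.34). Rcan3 lost its 4 calls, at 1.77, -1.29, 1.36 and 1.66, with standard errors of 0.74, 0.92, 0.71 and 0.72. In the main fit these errors were 0.49, 0.46, 0.46 and 0.58. A53T at 0.2 µM lies outside all other groups on this axis, so score and group are nearly confounded in its contrasts. Whether the axis accounts for the calls lost there was not tested.

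Quantile normalization moved the median of all genes in the 4 contrasts with A53T at 0.2 µM to -0.20 against DMSO, -0.22 against vector, 0.25 for 2.0 against 0.2 µM and -0.20 in the interaction. It ended the call of Rcan1 in vector at 0.2 µM (-0.18). It brought past the threshold Rcan1 in A53T at 2.0 µM (-0.25) and in the 0.2 µM interaction (-0.32), and Rcan2 in A53T at 2.0 µM (-0.20) and against vector at 0.2 µM (-0.25). With 17 separate samples, Rcan1 passed at 2.0 µM in vector (-0.15) and A53T (-0.19), and Rcan2 in A53T at 2.0 µM (-0.15), against vector at 0.2 µM (-0.17) and in the 0.2 µM interaction (0.25). Rcan1 in A53T at 2.0 µM also passed with a pseudocount of 4 (-0.19) or a minimum mean of 50 (-0.19), the latter also passing the Rcan2 interaction at 0.2 µM (0.25). A fit of only the groups compared ended the calls between A53T doses for Rcan1 (0.23) and Rcan2 (0.20), of Rcan1 against vector at 0.2 µM (-0.27) and of Rcan2 against vector at 2.0 µM (0.28). Without the 3 libraries that stand apart (replicate 1 of vector at 0.2 µM, 2 of vector at 2.0 µM and 1 of A53T at 2.0 µM), Rcan1 passed in A53T at 2.0 µM (-0.25) and against vector there (-0.21), and Rcan2 in the 0.2 µM interaction (0.28).

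Same-numbered libraries deviated together in 11 of 40 pairs (r above 0.1, range -0.51 to 0.67), and the numbers were not used to pair samples in the main fit. This check cannot exclude pairing, since the A53T libraries at 0.2 µM differ from each other by little more than sampling noise. A replicate block by title numbers had no place for the A53T library in DMSO whose number no title has. Only replicate 1 of that group was then fitted, so blocking and the loss of a library cannot be separated there. This block ended the calls of Rcan1 in vector at 0.2 µM (-0.23) and between A53T doses (0.23). It also ended that of Rcan3 in the 0.2 µM interaction (1.70, against 1.63 when only that library was left out). It gave 1307 called genes in vector at 0.2 µM, 1574 in A53T at 2.0 µM, 331 in A53T against vector in DMSO, 1721 in the 0.2 µM and 378 in the 2.0 µM interaction.

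The main counts for these 5 were 2056, 4233, 1579, 5321 and 1641. The axis score gave 3735 in vector at 0.2 µM, 3317 in A53T at 0.2 µM, 1695 between A53T doses, 3842, 3238 and 3900 for A53T against vector in DMSO, at 0.2 µM and at 2.0 µM, and 2206 and 2913 in the interactions. Without the 3 libraries the counts were 5897 in vector at 0.2 µM, 4390 and 3763 against vector in DMSO and at 2.0 µM, and 4254 in the 2.0 µM interaction. Only the groups compared gave 1787 in A53T at 2.0 µM, and 4172 and 689 against vector in DMSO and at 2.0 µM.

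Leaving out each library in turn gave 980 to 3012 genes in vector at 0.2 µM, 1837 to 4880 in A53T at 2.0 µM, 413 to 2279 and 1192 to 2960 against vector in DMSO and at 2.0 µM, and 632 to 2615 in the 2.0 µM interaction. The lowest counts were without replicate 3 of vector at 0.2 µM, the unnumbered A53T library in DMSO, replicate 1 of A53T in DMSO, replicate 1 of vector at 2.0 µM, and the unnumbered library again. Rcan1 ranged from -0.27 to -0.19 in vector at 0.2 µM, -0.19 to -0.11 at 2.0 µM, -0.25 to -0.15 in A53T at 2.0 µM and 0.18 to 0.27 between A53T doses. Rcan2 ranged from 0.18 to 0.22 between A53T doses, -0.20 to -0.14 against vector at 0.2 µM and 0.20 to 0.29 in that interaction, and Rcan3 from 1.63 to 2.51 in it.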
